A study of Mus musculus with 28 samples.

Results

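Single neurons of the mouse primary motor cortex (M1) were divided by their level of Mbp, the gene of myelin basic protein, into 9 Mbp-high and 19 Mbp-low neurons, of 28 neurons in all. The members were chosen by the deposited Mbp value alone. A neuron was Mbp-high where its deposited Mbp value was over 4 and Mbp-low where it was 4 or less. The value of 4 is the start of the trough above the lowest mode of all values in the table, and a gene is called over the trough in a neuron where its value is above 4. Because Mbp chose the neurons, the Mbp values themselves are a description of the split and were not tested between the sides.

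The neurons came from CD1 mice whose M1 was electroporated in utero on embryonic day 15 with 3 kinds of plasmid: one expressing GFP in every electroporated cell, one with the recombinase FLPo under a heat shock element, and an RFP reporter that needs FLPo. A neuron with RFP is one whose heat shock element had been active at some time, and the neurons without RFP had received the same plasmids. On embryonic days 16 and 17 the pregnant dams received either ethanol (EtOH) or phosphate-buffered saline (PBS) into the peritoneum, the ethanol at one of 2 doses (1.0 and 4.0 g/kg). The contents of live single neurons were collected on postnatal day 30. The labels give 15 RFP-positive EtOH neurons, 7 RFP-negative EtOH neurons and 6 RFP-negative PBS neurons, and state for none of them the dose or the animal. Neurons that share an animal are not independent, so differences are given with the spread over neurons and without p-values.

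Myelin basic protein holds together the inner faces of the myelin membrane, the lipid-rich wrapping that oligodendrocytes lay around axons. In oligodendrocytes its mRNA is carried out of the cell body and translated in the processes that form the sheath. The same gene also gives golli transcripts from an upstream start site, which are known in mouse neurons as well as in oligodendrocytes, and a value per gene does not separate them. RNA of a neuron and RNA of a glial process drawn up with it cannot be told apart in these values.

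Mbp (ENSMUSG00000041607) spans bases 82475146 to 82585637 of the plus strand of chromosome 18 in GRCm38. In the Mbp-high neurons its value was 10.63, 10.20, 8.74 and 7.24 in PBS neurons 4, 5, 6 and 2. It was 8.48, 5.81, 4.39 and 4.35 in RFP-positive EtOH neurons 2, 6, 5 and 14, and 8.26 in RFP-negative EtOH neuron 1. In the 19 Mbp-low neurons it ran between 2.09 and 3.55 with a median of 2.68. The Mbp-low values are packed within a narrow band, whereas the Mbp-high values are spread out, with 6 neurons over 7 and 3 between 4 and 6. The mean was 7.57 ± 2.31 in Mbp-high neurons and 2.65 ± 0.41 in Mbp-low neurons (SD, n = 9 and 19). Just inside the threshold lay RFP-positive EtOH neurons 14 (4.35) and 5 (4.39), and just outside it RFP-positive EtOH neurons 10 (3.55) and 12 (3.25).

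**Figure D1:**
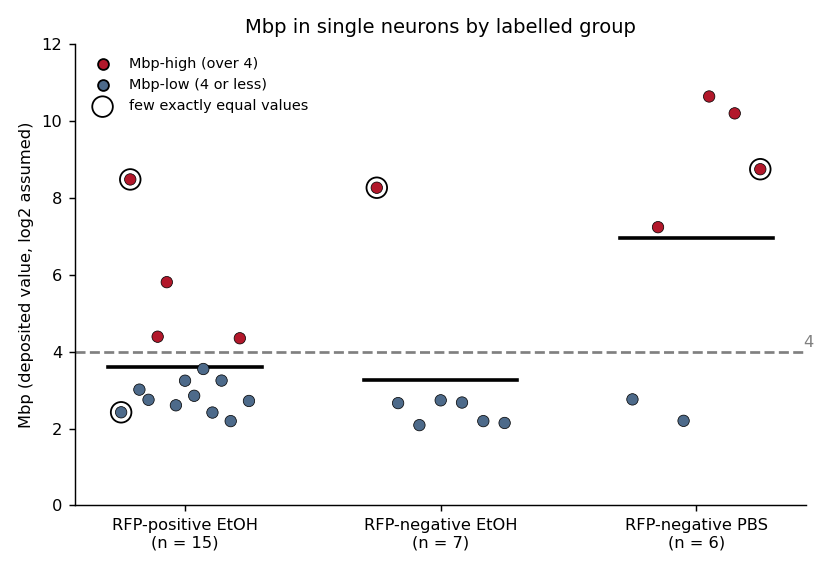
Each point is the Mbp value (log scale, base 2 assumed) of 1 neuron in its labelled group, with Mbp-high neurons in red, Mbp-low neurons in blue, the group mean as a bar and the threshold of 4 as a dashed line. Circled neurons shared few exactly equal values with others. The Mbp-low neurons lie between 2.09 and 3.55, and 4 of 6 PBS neurons lie above 4.

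The labelled groups were unevenly split. Mbp was over the trough in 4 of 15 RFP-positive EtOH neurons (26.7%, exact Clopper-Pearson 95% interval 7.79 to 55.1%), in 1 of 7 RFP-negative EtOH neurons (14.3%, 0.361 to 57.9%) and in 4 of 6 PBS neurons (66.7%, 22.3 to 95.7%). The intervals overlap widely and cover only the counting of neurons. They treat neurons as independent, which those of 1 animal are not, so they may be too narrow and do not compare exposures. PBS neurons made up 44.4% of the Mbp-high side and 10.5% of the Mbp-low side, so a pooled difference between the sides also carries the difference between exposures. For this reason pooled differences are joined by values with the labelled groups as a term of a linear fit (group-adjusted) or within labelled groups. This was done for the largest differences and for some others where these values depart from the pooled one. Within the RFP-negative EtOH group the Mbp-high side is a single neuron.

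In measures of the whole library the sides were alike in range. A neuron had 286 to 434 genes over the trough (median 336) on the Mbp-high side and 273 to 421 (median 337) on the Mbp-low side, of 1024 genes in the table. Read depth is unknown. Of 4 neurons that shared fewer than 5 exactly equal values with other neurons, 3 were Mbp-high, and why they stand apart was not tested. These were PBS neuron 6, RFP-positive EtOH neuron 2 and RFP-negative EtOH neuron 1. The other set of 24 neurons held 6 Mbp-high and 18 Mbp-low neurons, and differences within it are given for the results that it moved most.

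Neuronal mRNA was looked for with genes of neurons, named after their values were seen. Snap25, a membrane-fusion protein of synaptic release, was over the trough in 9 of 9 Mbp-high and 19 of 19 Mbp-low neurons, with means of 10.71 ± 1.02 in Mbp-high and 10.19 ± 1.52 in Mbp-low neurons. Nrgn, a calmodulin-binding protein of cortical excitatory neurons, was over it in 8 of 9 Mbp-high and 19 of 19 Mbp-low neurons. Mef2c, a transcription factor of cortical neurons, was over it in 9 of 9 Mbp-high and 16 of 19 Mbp-low neurons. Nrgn differed by -0.90 and Mef2c by 0.74. The other pyramidal neuron genes of the table had lower means in Mbp-high neurons. Camk2b (-0.94) was over the trough in 6 of 9 Mbp-high and 13 of 19 Mbp-low neurons. Ncdn (-1.95) was over it in 5 of 9 Mbp-high and 15 of 19 Mbp-low neurons. The Mbp-high cells thus carried neuronal mRNA in addition to Mbp. The exception for Nrgn was PBS neuron 4, which had the highest Mbp value, an Nrgn value of 3.13, and the highest value of the whole table in Gad1 (13.2), the GABA-synthesising enzyme of interneurons. Gad1 was over the trough in 2 of 9 Mbp-high and 4 of 19 Mbp-low neurons.

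Other genes of oligodendrocytes were seen on both sides. Tmem88b, a membrane protein enriched in oligodendrocytes, had a difference of -0.13 (group-adjusted 0.27) and was over the trough in 1 of 9 Mbp-high and 4 of 19 Mbp-low neurons.

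Among other genes enriched in oligodendrocytes, 12 of 61 listed were in the table, 7 with a higher and 5 with a lower mean on the Mbp-high side. Their median difference was 0.68 (group-adjusted 0.44), against -0.03 over all 1023 genes other than Mbp. One of them, Fth1, passed the size rule used throughout, a difference of means of at least 2, which is 4-fold if the base is 2. Over all genes, 3.23% passed this rule upward and 2.64% downward. Fth1, the heavy chain of the iron store ferritin, had a mean of 9.62 ± 1.11 in Mbp-high neurons and 7.20 ± 3.03 in Mbp-low neurons, and was over the trough in 9 of 9 Mbp-high and 15 of 19 Mbp-low neurons. Ferritin is made in many cells, neurons included. Qdpr, a pteridine reductase, differed by 1.53, and Gpm6b, a membrane glycoprotein that neurons also express, by 1.32. Tubb4a, a tubulin abundant in oligodendrocytes, differed by 1.26. The group-adjusted values were smaller for Gpm6b (0.43) and Tubb4a (0.49) and larger for Qdpr (2.12) and Fth1 (2.74). Within PBS neurons Gpm6b stood at -0.22, Tubb4a at -1.51 and Qdpr at -0.24. Qdpr stood at 1.71 within RFP-positive EtOH neurons and at 7.20 within RFP-negative EtOH neurons, where the Mbp-high side is a single neuron. Gpm6b also stood at -2.08 within RFP-negative EtOH neurons. In the set of 24 neurons the difference of Qdpr was 0.70, that of Cryab 0.35, that of Gatm 0.03 and that of Enpp2 -1.34. On the other side, Enpp2 (autotaxin) differed by -0.47 and Gatm, an enzyme of creatine synthesis, by -0.57. Ptgds (prostaglandin D synthase) differed by -0.16 and Cryab (alpha-B-crystallin) by 0.78, but both had their highest value in the same Mbp-low neuron, RFP-positive EtOH neuron 12, at 12.49 for Ptgds and 12.22 for Cryab.

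Summed over the 14 myelin and oligodendrocyte genes other than Mbp, values were 45.4 to 87.3 (median 68.5) in Mbp-high neurons and 43.7 to 84.2 (median 59.4) in Mbp-low neurons. Between 2 and 10 of the 14 genes were over the trough in Mbp-high neurons (median 6) and between 1 and 8 in Mbp-low neurons (median 5). The ranges of the sides overlapped almost entirely, and the share of glial RNA in a neuron's Mbp value was not tested.

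**Figure D2:**
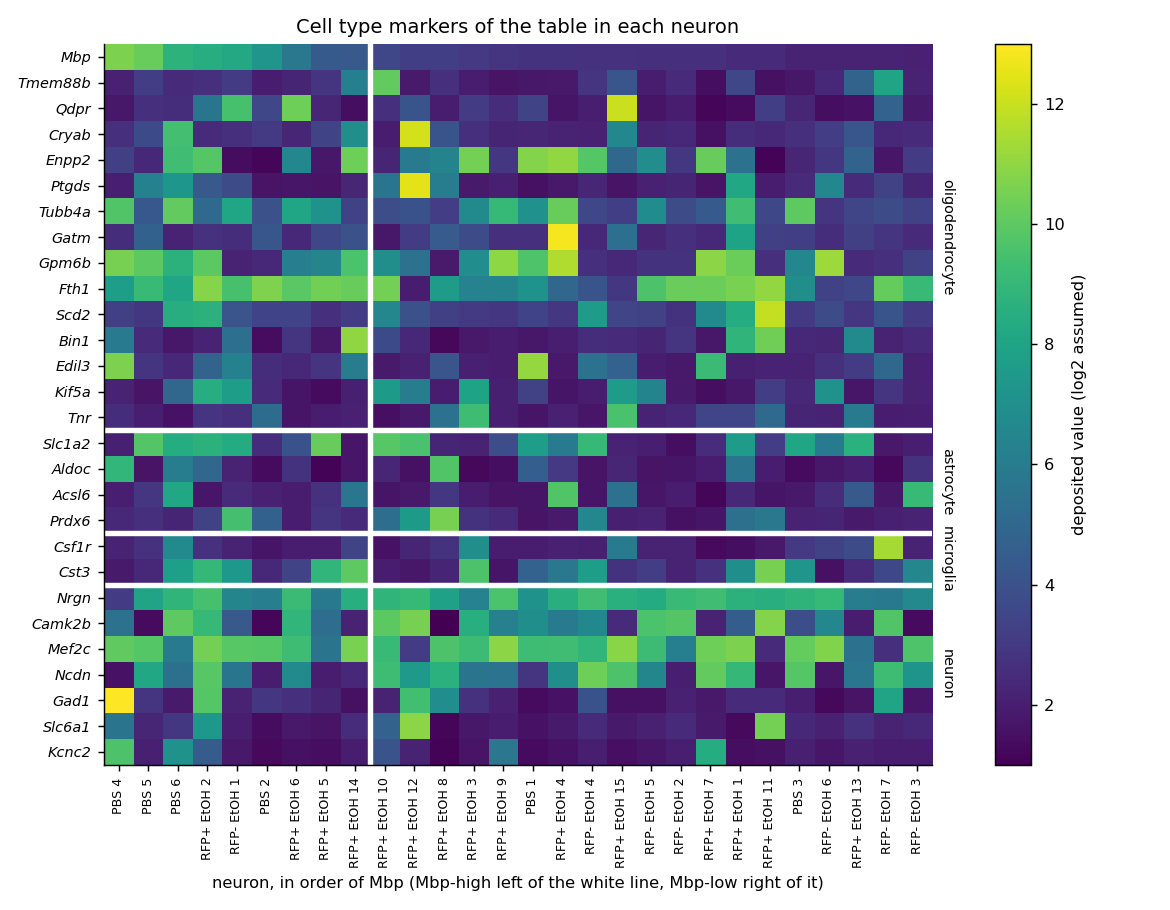
Each column is 1 neuron in order of falling Mbp, with Mbp-high neurons left of the vertical white line and Mbp-low neurons right of it, and each row is a marker gene of the cell type written at the right. Color gives the deposited value (log scale, base 2 assumed). High values of Qdpr, Gpm6b and Cst3 occur on both sides of the line.

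Markers of other glia had pooled differences below the size rule. Of 36 astrocyte genes the table held 4, with a median difference of 0.54 (near 0 in the set of 24 neurons), and 0 of them passed the size rule. The glutamate transporter Slc1a2 differed by 1.16, the aldolase Aldoc by 0.79, the acyl-CoA synthetase Acsl6 by 0.30 and the peroxiredoxin Prdx6 by -0.03. The Slc1a2 difference was 0.73 group-adjusted, -2.18 within PBS neurons and 0.15 in the set of 24 neurons, and that of Aldoc was 0.25 group-adjusted. The other astrocyte genes were higher within PBS neurons, at 1.52 for Aldoc, 2.03 for Acsl6 and 1.05 for Prdx6. The astrocyte median was -0.26 within RFP-positive EtOH, 2.56 within RFP-negative EtOH and 1.28 within PBS neurons. Of 19 microglial genes the table held Cst3 (cystatin C), with a difference of 1.42, and Csf1r (the receptor of colony-stimulating factor), with -0.32. In the set of 24 neurons Cst3 stood at 0.48, and within PBS neurons at -2.40. Its group-adjusted difference was 1.90, with 3.44 within RFP-positive EtOH and 3.29 within RFP-negative EtOH neurons. Of 18 genes of oligodendrocyte precursors it held Tnr (tenascin R), with -0.96. Over all 21 glial genes other than Mbp, 4 to 14 were over the trough in an Mbp-high neuron and 2 to 12 in an Mbp-low neuron, with a median of 7 on both sides. Blood and vessel genes, listed as 8 and 26, had 0 members in the table.

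Across the 1023 genes other than Mbp, 500 had a higher and 523 a lower mean in Mbp-high neurons. The differences ran from -2.75 to 4.30, with 90% between -1.62 and 1.80. At the size rule 33 genes were higher (3.23%) and 27 lower (2.64%) on the Mbp-high side. In the group-adjusted fit 48 genes were higher (4.69%) and 42 lower (4.11%), and 26 of the higher and 22 of the lower passed in both. For 0 genes were the sides free of overlap (0.0%). The median SD over neurons was 2.51 on the Mbp-high side and 2.60 on the Mbp-low side, about as large as the differences called.

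The largest difference after Mbp was that of Map4, a protein that binds and stabilises microtubules. Its lowest, median and highest values were 2.88, 9.31 and 10.98 in Mbp-high neurons and 1.84, 2.64 and 9.47 in Mbp-low neurons. Map4 was over the trough in 7 of 9 Mbp-high and 6 of 19 Mbp-low neurons. The means were 8.11 ± 3.16 in Mbp-high and 3.81 ± 2.31 in Mbp-low neurons, a difference of 4.30 (group-adjusted 4.12). The difference was 4.64 within RFP-positive EtOH neurons, 1.04 within RFP-negative EtOH neurons and 4.97 within PBS neurons, and leaving out any one Mbp-high neuron gave 3.94 to 4.95.

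Lysosomal genes came next. Psap encodes prosaposin, the precursor of the saposins that help lysosomal enzymes to break down sphingolipids. Psap had values of 2.70, 8.73 and 11.35 (lowest, median and highest) in Mbp-high neurons and 1.10, 2.54 and 9.64 in Mbp-low neurons. It was over the trough in 6 of 9 Mbp-high and 3 of 19 Mbp-low neurons, and the difference was 3.82 (group-adjusted 3.29). Atp6v0c is the proton-carrying subunit of the pump that acidifies lysosomes and synaptic vesicles. It lay between 7.17 and 10.58 in Mbp-high neurons (median 9.94) and between 1.86 and 10.12 in Mbp-low neurons (median 6.60), with a difference of 3.26. Every Mbp-high neuron and 12 of 19 Mbp-low neurons had Atp6v0c over the trough. The direction of the Psap and Atp6v0c differences was the same in each of the labelled groups, at 3.06, 0.49 and 5.59 for Psap and at 2.54, 2.92 and 3.67 for Atp6v0c in RFP-positive EtOH, RFP-negative EtOH and PBS neurons. Of the 12 lysosomal genes in the table, 10 had a higher and 2 a lower mean in Mbp-high neurons. Their median difference was 0.61 (group-adjusted 0.56). Within RFP-positive EtOH neurons that median was 0.06, within PBS neurons -0.08 and within RFP-negative EtOH neurons, with a single Mbp-high neuron, 1.32. Of the 12 genes, 3 passed the size rule upward (25.0%, against 3.23% of all genes). The third was Atp6v1a, the catalytic subunit of the same pump (2.35). The pump's accessory subunit Atp6ap1 stood at -1.99, and the protease genes Ctsb and Ctsd at 0.80 and 0.08 (group-adjusted -0.61 and -0.82).

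Mitochondrial transcripts had higher means in Mbp-high neurons in the pooled comparison, while their median difference within PBS neurons was near 0. All 8 mitochondrially encoded protein genes of the table had a higher mean, with a median difference of 1.50 (group-adjusted 1.05), and 3 passed the size rule. The strongest, mt-Nd4, a subunit of complex I, was over the trough in 9 of 9 Mbp-high and 11 of 19 Mbp-low neurons. Its values were 5.30, 9.36 and 10.87 (lowest, median and highest) in Mbp-high neurons and 2.05, 4.33 and 10.47 in Mbp-low neurons, a difference of 3.78. Next were mt-Nd1 (2.43), another subunit of complex I, and mt-Cytb (2.198), the cytochrome of complex III, while mt-Co1 of complex IV differed by 0.30 (group-adjusted -0.06). The difference of mt-Nd1 was -0.050 within PBS neurons, and that of mt-Nd4 was 3.46 there. Taken per neuron, the median over the 8 genes averaged 8.32 in Mbp-high and 6.47 in Mbp-low neurons. Within RFP-positive EtOH neurons it averaged 6.92 in Mbp-high and 5.98 in Mbp-low neurons, and within PBS neurons 9.46 in Mbp-high and 9.55 in Mbp-low neurons. The median gene difference was 0.63 within RFP-positive EtOH neurons, 3.17 within RFP-negative EtOH neurons and 0.08 within PBS neurons. Both sides of the PBS group thus averaged above both sides of the RFP-positive EtOH group, and the part of exposure or RNA quality in the pooled difference was not tested.

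Nuclear genes of oxidative phosphorylation had a smaller median difference in the same direction. Of 23, 17 had a higher and 6 a lower mean in Mbp-high neurons, with a median difference of 0.58 (group-adjusted 0.75). In the set of 24 neurons the median was 0.11. Atp5f1, a stalk subunit of ATP synthase whose exons overlap those of Wdr77 on the other strand, differed by 2.81. That value was 6.09 within RFP-positive EtOH neurons and -2.17 within PBS neurons. Cycs, the electron carrier cytochrome c, went the other way by -2.15, with values over the trough in 6 of 9 Mbp-high and 17 of 19 Mbp-low neurons.

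Iron uptake and storage genes were among the higher ones. Tfrc, the transferrin receptor through which cells take up iron, had values of 1.59, 5.92 and 11.82 (lowest, median and highest) in Mbp-high neurons and 1.52, 1.94 and 6.08 in Mbp-low neurons. It was over the trough in 5 of 9 Mbp-high and 2 of 19 Mbp-low neurons, with a difference of 2.74 (group-adjusted 2.27). The difference of Tfrc was 1.89 without PBS neuron 5, whose value was the highest, and -0.80 within RFP-negative EtOH neurons. Fth1, described above, is the other called member of the iron and antioxidant list. Of that list's 12 members, 6 had a higher and 6 a lower mean (median 0.07, group-adjusted 0.37), and the ferritin light chain Ftl1 stood at -1.04.

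Further genes completed the 12 highest. Ensa, a small inhibitor of protein phosphatase 2A, differed by 2.80 and was over the trough in 8 of 9 Mbp-high and 7 of 19 Mbp-low neurons. Itm2c, a membrane protein of the BRI family abundant in brain, differed by 2.79 and was over it in 8 of 9 Mbp-high and 9 of 19 Mbp-low neurons. B4gat1, which extends the sugar chain of alpha-dystroglycan, differed by 2.50 (3.80 in the set of 24 neurons), although its exons overlap those of another gene on the same strand. Snhg11, a long noncoding RNA of neurons, differed by 2.48 and Pebp1, an inhibitor of Raf kinase, by 2.44. These genes kept their sign within RFP-positive EtOH neurons, at 3.91 for Ensa, 2.77 for Itm2c, 3.51 for B4gat1, 3.47 for Snhg11 and 4.39 for Pebp1. Within PBS neurons they stood at 0.33 for Ensa, 2.28 for Itm2c, 3.49 for B4gat1, -0.99 for Snhg11 and 0.39 for Pebp1.

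**Figure D3:**
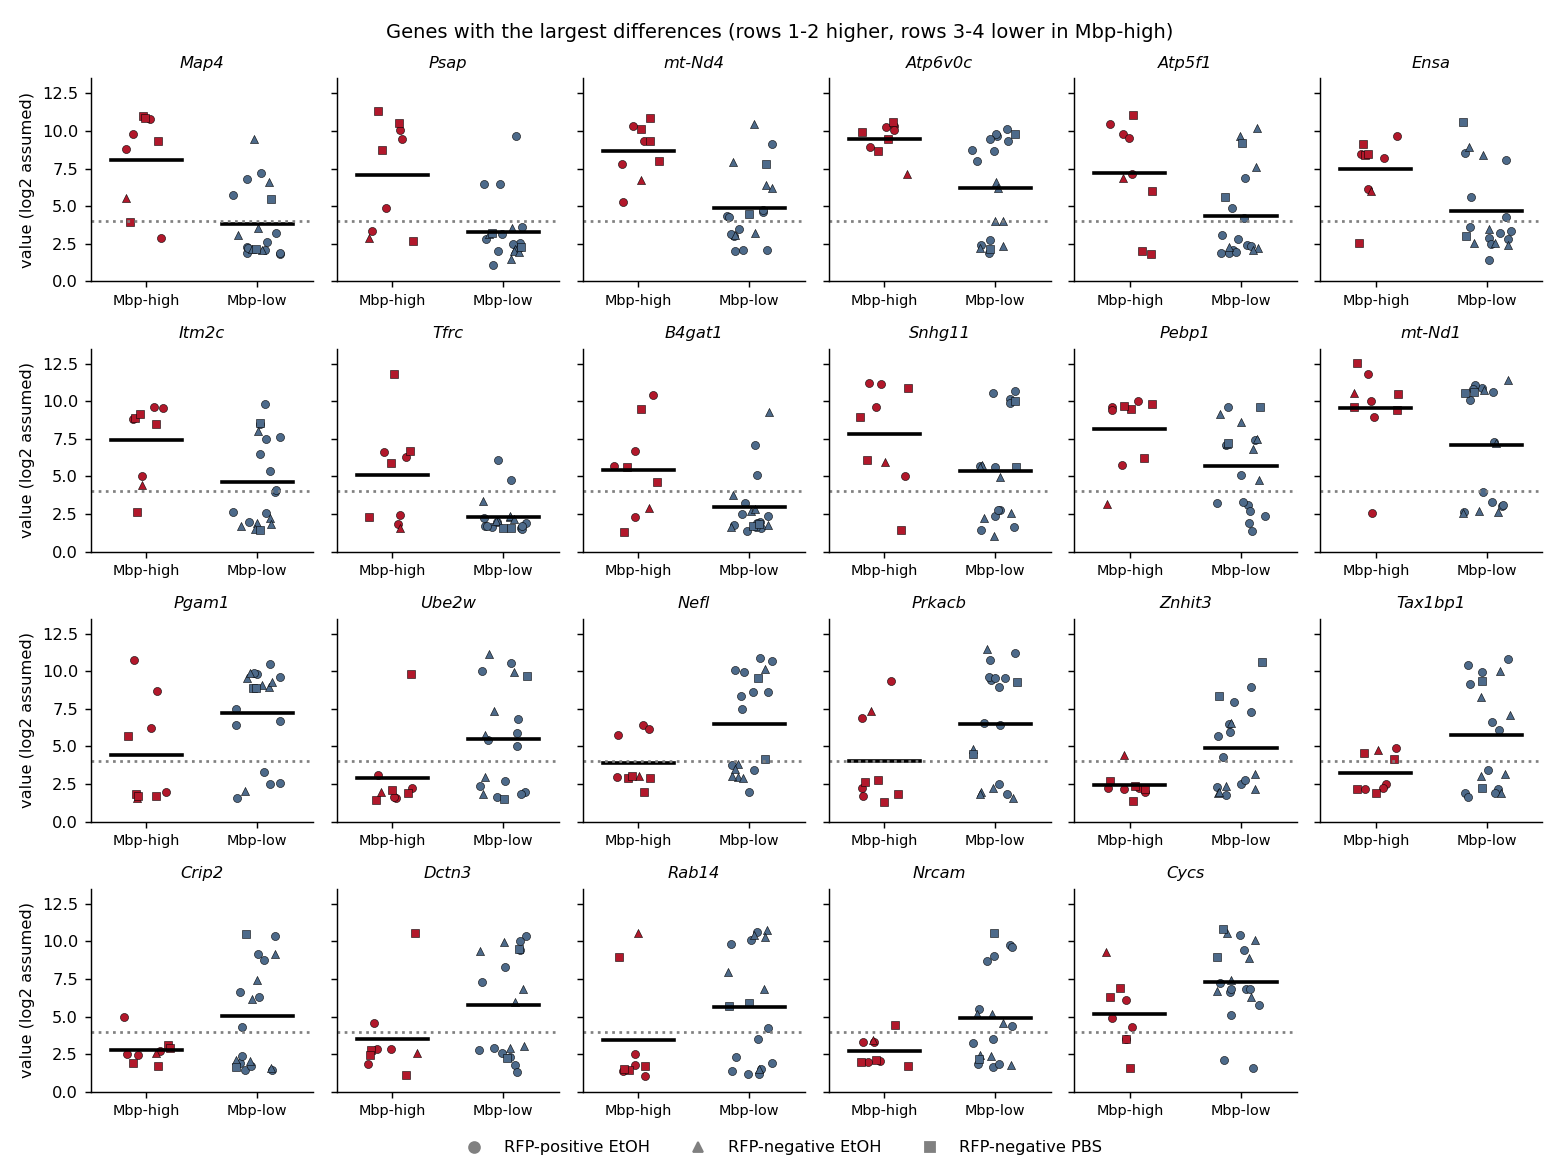
Values (log scale, base 2 assumed) of the 12 highest genes (upper panels) and 11 of the 12 lowest genes (lower panels) by difference of means, with 1 point per neuron, Mbp-high neurons left in red and Mbp-low neurons right in blue. Marker shape gives the labelled group, the bar the mean of a side and the dotted line the value of 4. Map4 is over 4 in 7 of 9 Mbp-high and 6 of 19 Mbp-low neurons, and the sides overlap in every panel.

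Genes with a lower mean in Mbp-high neurons included components of the axonal cytoskeleton and of transport along it. Nefl, the light neurofilament subunit of large axons, had values of 1.95, 3.04 and 6.39 (lowest, median and highest) in Mbp-high neurons and 1.98, 7.50 and 10.87 in Mbp-low neurons. Nefl was over the trough in 3 of 9 Mbp-high and 11 of 19 Mbp-low neurons. Its difference was -2.62 (group-adjusted -2.63), and it was negative in each labelled group, at -2.30, -1.36 and -4.16 in RFP-positive EtOH, RFP-negative EtOH and PBS neurons. The annotated exons of Nefl and Nefm overlap on opposite strands, and the library kit does not keep strand. Dctn3, a subunit of the dynactin complex that links cargo to dynein, differed by -2.23 and was over the trough in 2 of 9 Mbp-high and 10 of 19 Mbp-low neurons. Nrcam, an adhesion protein of the axon initial segment and of nodes of Ranvier, lay between 1.74 and 4.46 in Mbp-high neurons and between 1.65 and 10.55 in Mbp-low neurons, a difference of -2.20. It was over the trough in 1 of 9 Mbp-high and 10 of 19 Mbp-low neurons. Ank3, the ankyrin that anchors sodium channels at those sites, stood at -1.36. In the list of the initial segment, node and paranode, 1 of 7 genes had a higher and 6 a lower mean. The list median was -0.77 (group-adjusted -0.66, and -1.28 in the set of 24 neurons). It was -0.51 within RFP-positive EtOH, -1.48 within RFP-negative EtOH and 0.13 within PBS neurons.

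The cytoskeleton as a whole did not have a common direction. Of 17 genes of neurofilaments, tubulins and motors, 9 had a higher and 8 a lower mean, with a median of 0.77 (0.41 in the set of 24 neurons). Against Nefl and Dctn3 stood Dynll1, a light chain of dynein, at 2.40 with values over the trough in 9 of 9 Mbp-high and 10 of 19 Mbp-low neurons. The dynein heavy chain Dync1h1 stood at 1.97 (group-adjusted 1.07), the tubulin Tuba1b at 1.79 and the kinesin Kif5c at 1.58 (group-adjusted 2.46).

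Pgam1, a glycolytic mutase, had the lowest difference of the table, -2.75. It was over the trough in 4 of 9 Mbp-high and 14 of 19 Mbp-low neurons, with medians of 1.95 in Mbp-high and 8.87 in Mbp-low neurons. The difference of Pgam1 was -6.56 within RFP-negative EtOH neurons, -6.15 within PBS neurons and 0.51 within RFP-positive EtOH neurons. Of 6 glycolytic genes, 4 had a lower mean, with a median of -1.07 (group-adjusted -1.12). That median was -0.73 within RFP-positive EtOH, 0.95 within RFP-negative EtOH and -0.08 within PBS neurons. Lactate dehydrogenase A, Ldha, stood at -1.53 and phosphoglycerate kinase, Pgk1, at -1.16, whereas Aldoc stood at 0.79 and Tpi1 at 0.76 (group-adjusted 1.49). The list median was -1.61 in the set of 24 neurons.

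Signalling and ubiquitin genes filled the rest of the lower group. Prkacb, a catalytic subunit of protein kinase A, differed by -2.51 and was over the trough in 3 of 9 Mbp-high and 13 of 19 Mbp-low neurons. Ube2w, a ubiquitin-conjugating enzyme, was over it in 1 of 9 Mbp-high and 11 of 19 Mbp-low neurons, with a difference of -2.63. Tax1bp1, an autophagy receptor, differed by -2.47, the LIM-domain protein Crip2 by -2.24 and the vesicle GTPase Rab14 by -2.21 (-4.12 in the set of 24 neurons). Znhit3, a zinc-finger protein whose exons overlap those of Myo19 on the other strand, differed by -2.49 (group-adjusted -3.35). It was over the trough in 1 of 9 Mbp-high and 10 of 19 Mbp-low neurons. The rule that chose the 12 lowest genes admitted only genes over the trough in 10 or more Mbp-low neurons, so that count is not a result. Of these genes, all except Cycs were over the trough in 4 or fewer Mbp-high neurons.

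**Figure D4:**
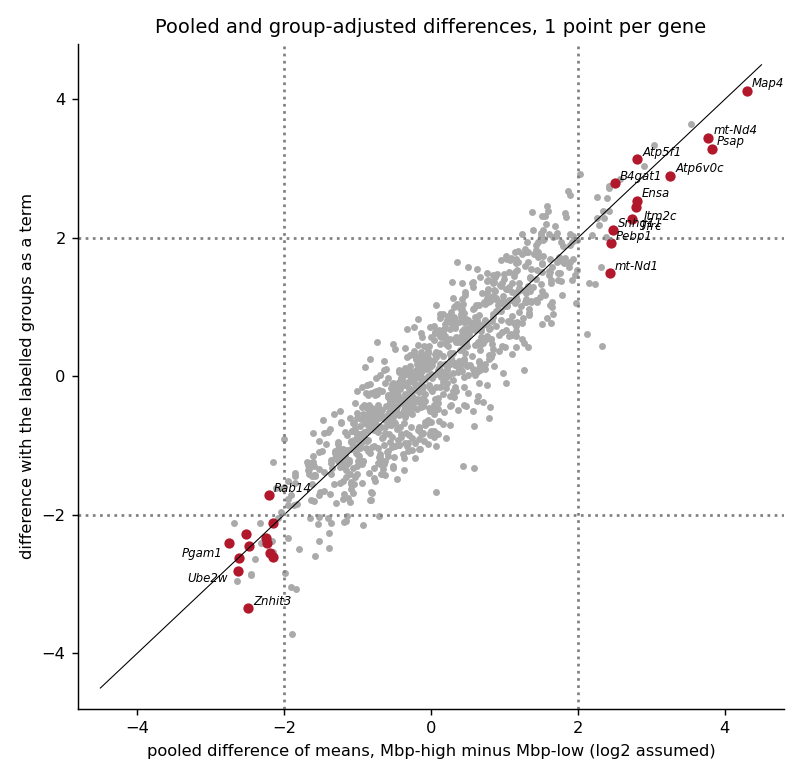
Each point is 1 of the 1023 genes other than Mbp, with the pooled difference of means (Mbp-high minus Mbp-low, log scale, base 2 assumed) on the horizontal axis and the difference with the labelled groups as a term on the vertical axis. The 12 highest and 12 lowest genes are red, the dotted lines mark differences of 2, and the diagonal marks equality. Pebp1 and mt-Nd1 drop below 2 when the labelled groups are a term, at 1.92 and 1.49, and Rab14 lies at -1.72.

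Of the 24 genes, 1 changed sign within RFP-positive EtOH neurons (Pgam1), 3 within PBS neurons (Atp5f1, Snhg11 and mt-Nd1) and 7 against the single Mbp-high neuron of the RFP-negative EtOH group. Of all 60 genes past the size rule, 48 had the same sign within RFP-positive EtOH as within PBS neurons. The pooled difference that chose these genes is made largely from the same groups, so part of this agreement is built in. The share over all genes was not counted. A rule set after the values were seen took 4 of the 1023 genes other than Mbp. These 4 were over the trough in 0 of 9 Mbp-high neurons and in 9 of 19 Mbp-low neurons. They were Rnf4, a SUMO-targeted ubiquitin ligase (difference -2.68), Hdgf, a heparin-binding growth factor (-2.44), Nlk, a kinase (-2.33), and Itgav, the integrin alpha-V chain (-2.15). With 9 neurons, 0 says only that the gene was not seen over the trough in them. How many genes another choice of 9 neurons would give was not tested.

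Cytosolic heat shock chaperones, a class that includes targets of the pathway the reporter reads, mostly had lower means in Mbp-high neurons. Of 13, 3 had a higher and 10 a lower mean, with a median difference of -1.06 (group-adjusted -0.99). Hsp90ab1, the constitutive form of Hsp90, was the one past the size rule, with 2.79, 10.31 and 11.56 (lowest, median and highest) in Mbp-high neurons and 9.25, 10.89 and 11.93 in Mbp-low neurons. The medians of Hsp90ab1 lie close together, and its difference of -2.08 reflects a wide spread on the Mbp-high side (8.66 ± 3.34) beside a narrow one on the Mbp-low side (10.74 ± 0.80). The chaperonin subunit Cct6a stood at -1.57 (group-adjusted -2.60), the Hsp70 cochaperone St13 at -1.52 (group-adjusted -0.94), Hsp90aa1 at -1.23 and Hspa8 at -1.18, while the Hsp90 cochaperone Fkbp4 stood at 1.60. The list median was -0.87 within RFP-positive EtOH neurons, 0.68 within RFP-negative EtOH neurons and -1.09 within PBS neurons. Per neuron, the median over the 13 genes lay between 2.44 and 4.44 in Mbp-high neurons and between 2.51 and 7.30 in Mbp-low neurons. The lower ends coincide, and the neurons with the highest chaperone levels were Mbp-low.

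Chaperones of the endoplasmic reticulum had a median of -0.52 over 7 genes, 3 with a higher and 4 with a lower mean. Hsp90b1 stood at 2.31 (group-adjusted 1.58) and Hspa5 at -0.52 (group-adjusted -1.33). That list median was -0.08 in the set of 24 neurons. Of 10 proteasome genes, 6 had a higher mean, with a median of 0.42. The catalytic subunit Psmb6 differed by 2.13, which became 0.62 in the group-adjusted fit. The 20 cytosolic ribosomal protein genes were split into 9 higher and 11 lower, with a median of -0.07 (group-adjusted 0.12) and extremes of 1.73 (Rps6) and -1.52 (Rpl4). Endoplasmic reticulum chaperones, proteasome genes and ribosomal protein genes thus each had members in both directions.

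Synaptic genes were divided evenly. Of 16 genes of vesicles and release, 8 had a higher and 8 a lower mean, with a median of 0.04 (group-adjusted 0.35). Vamp2, the vesicle membrane-fusion protein, differed by 1.63 and was over the trough in 9 of 9 Mbp-high and 14 of 19 Mbp-low neurons. Of 8 postsynaptic genes 3 were higher, with a median of -0.26 (group-adjusted -0.55), and the GABA receptor gene Gabra2 stood at -1.19. Pyramidal neuron genes had a median of -0.92 over 4 members, Ncdn (neurochondrin) being lowest at -1.95, and interneuron genes one of 1.06 over 3. The group-adjusted medians were -0.56 for pyramidal and 0.58 for interneuron genes, and those in the set of 24 neurons were -1.82 and 0.52. Within PBS neurons the interneuron median was 3.32, where PBS neuron 4 is 1 of the 4 Mbp-high neurons, and within RFP-positive EtOH neurons it was -0.36.

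**Figure D5:**
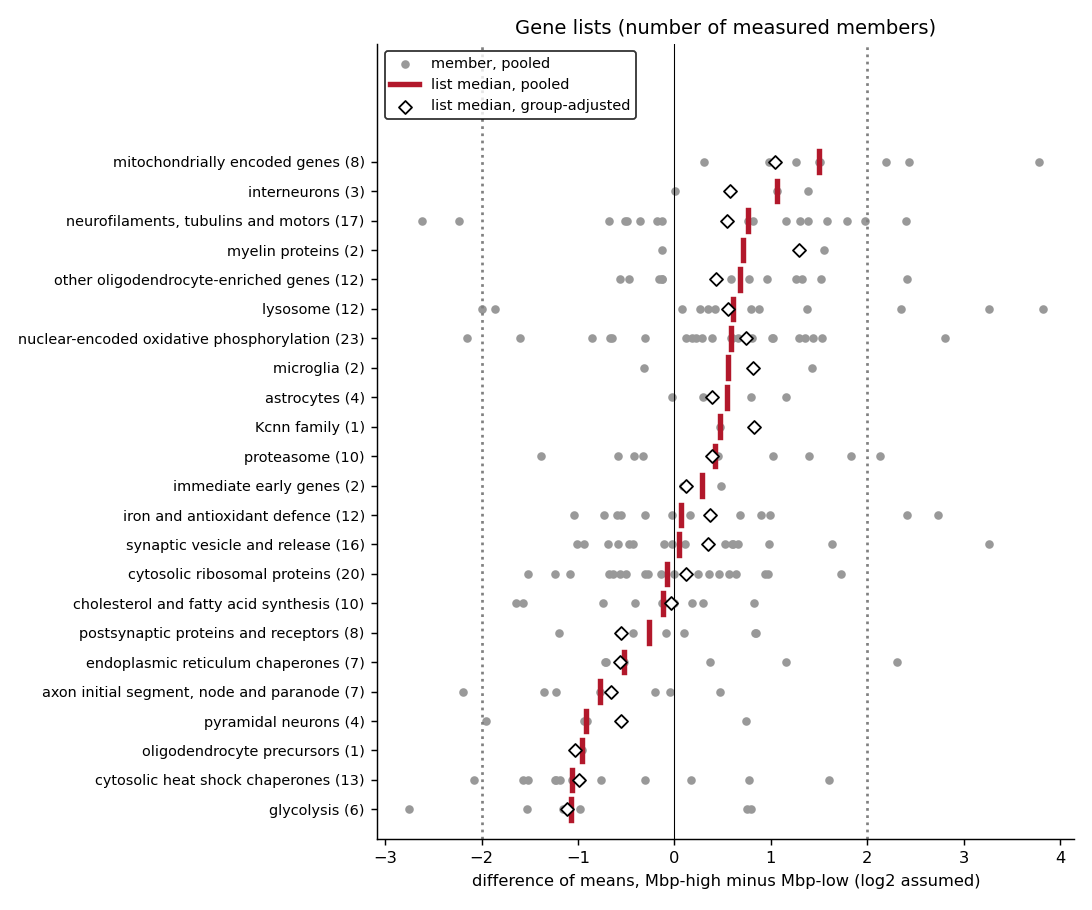
Difference of means between Mbp-high and Mbp-low neurons (log scale, base 2 assumed) for each measured member of a gene list (grey points), with the list median pooled (red bar) and group-adjusted (diamond). Numbers in brackets are measured members, and dotted lines mark differences of 2. The highest pooled list median is that of mitochondrially encoded genes, at 1.50, and the lowest that of glycolysis, at -1.07.

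Genes that make lipids such as those of myelin had a pooled median difference near 0, with opposite signs within labelled groups. That median was -1.26 within RFP-positive EtOH, 0.05 within RFP-negative EtOH and 1.16 within PBS neurons. Of 10 genes of cholesterol and fatty acid synthesis, 3 had a higher and 7 a lower mean in Mbp-high neurons, with a median of -0.12 (group-adjusted -0.03, and -0.49 in the set of 24 neurons), and 0 passed the size rule. Fatty acid synthase, Fasn, was over the trough in 0 of 9 Mbp-high and 5 of 19 Mbp-low neurons (difference -1.57), and Hacd3, a dehydratase of fatty acid elongation, stood at -1.64. The immediate early genes Fos and Junb stood at 0.09 and 0.49, and at -1.02 and -0.04 in the set of 24 neurons. Kcnn2, a calcium-activated potassium channel and the member of its family in the table, was over the trough in 2 of 9 Mbp-high and 4 of 19 Mbp-low neurons. Its mean was 3.34 ± 2.03 in Mbp-high and 2.87 ± 2.03 in Mbp-low neurons, a difference of 0.47 (group-adjusted 0.82), well within the spread over neurons.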

How the data were processed

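Libraries were made from single-neuron contents with SMARTer Ultra Low and Nextera XT kits, which do not keep strand, and read for 51 cycles, per the labels' protocols. The authors demultiplexed with CASAVA 1.8 and used the FASTX-Toolkit as a quality filter, per the same protocols. Bowtie2, Cufflinks 2.2.1 and GRCm38 are named in the submitters' processing notes. The authors deposited logarithmic values, read here as log2. The base, the normalization and the cut-off by which genes entered the table are not given in the sources used here, and another base would scale all differences alike. The table held 1024 genes in 28 columns, with 0 columns of other samples. Read depth is unknown, so no value has a counting interval.

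Groups follow titles and exposure labels. The design text counts 5 PBS neurons where 6 exist, and a time course label of PBS neurons mentions EtOH. Each side was described by means of the deposited values, and a gene was called where the means differed by at least 2. The group-adjusted value is the coefficient of the Mbp side in a linear fit with the 3 labelled groups (Python 3.11.15, numpy 2.4.6, pandas 2.3.3, scipy 1.17.1). The fit was run on values permuted within labelled groups with known shifts added, and it returned the shifts. A linear fit does so by construction, so this checks only the code. No p-values were made, since no label names a neuron's animal and the sides come from a measured value.

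Named genes were Mbp, Kcnn2, the 12 highest and 12 lowest differences among genes over the trough in at least 50% of the higher side (passing over clone names and pseudogenes), all measured glial list members and the 2 most different members of each other list. Some genes under this rule are not reported here. Further list members and neuron markers were named after their values were seen. Members and lists were chosen with earlier results of these data known. Of 25 lists, 23 had measured members. Identifiers were matched to GENCODE M21 for 1020 of 1024 genes. Of 77 named genes, 24 have exons that overlap another gene, 18 of them on the opposite strand, so their values can include its reads. The sources do not say how multiply matching reads were counted, which also affects tubulins, ribosomal proteins and other near-identical copies. Alternatives tried were other thresholds on Mbp, values within labelled groups, medians, arithmetic means, other scalings, a filter and a floor on low values, and fits without doubtful neurons.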

Additional observations from a re-analysis of the deposited data

Results flagged for a closer look

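Each value here stood apart from the others of its group by a gap beyond Dixon's 95% limit. For normally distributed values chance alone gives about 1 such value in 20 groups. The values here fall below and above a trough, so that rate need not hold for them. Every gene named above was examined, so some such values are expected. Mbp in RFP-negative EtOH neuron 1 was 8.26, against 2.09 to 2.73 in the other neurons of that group. This gap restates the split, which was made on the same Mbp values, and is not a separate result. The upper quartile of all values in PBS neuron 1, an Mbp-low neuron, was 8.05, against 5.23 to 6.28 in the other PBS neurons.

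The remaining values concern the Mbp-high neurons. Tfrc was 11.8 in PBS neuron 5, against 1.59 to 6.72 in the others. Edil3, a secreted integrin ligand, was 10.6 in PBS neuron 4, against 2.34 to 6.30. In PBS neuron 6, Ube2w was 9.83 (others 1.45 to 3.09), Dctn3 10.6 (others 1.13 to 4.60) and Csf1r 6.76 (others 1.70 to 3.45). Tnr was 5.23 in PBS neuron 2 (others 1.60 to 2.82). RFP-positive EtOH neuron 14, the neuron nearest the Mbp threshold, had an mt-Nd1 value of 2.53 (others 8.98 to 12.5), and values of 11.001 for Bin1 (others 1.39 to 5.88), 6.19 for Tmem88b (others 1.94 to 3.18) and 5.00 for Crip2 (others 1.71 to 3.10). In RFP-negative EtOH neuron 1, Znhit3 was 4.42 (others 1.34 to 2.70) and Prdx6 9.45 (others 1.96 to 4.72).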

How the results depend on the processing

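No paired analysis was possible because the comparison comes from no test and the sides of a group share no replicate number. The count of genes at least 2 higher in Mbp-high neurons, 33 as reported, was 51 with Mbp over 5 and 56 with Mbp over 6. It was 113, 204 and 178 within RFP-positive EtOH, RFP-negative EtOH and PBS neurons, 96 with medians, 107 with arithmetic means, 56 with neurons set to the same median of genes over the trough and 15 with values floored at the trough. It was 63 without the 4 neurons with few equal values, 52 without neurons with Gad1 over the trough, and 36 to 51 without any one Mbp-high neuron, the highest without RFP-negative EtOH neuron 1. The count of genes at least 2 lower, 27 as reported, was 15 with Mbp over 6 and 42 in the group-adjusted fit. It was 92, 115 and 227 within RFP-positive EtOH, RFP-negative EtOH and PBS neurons, 42 with medians, 313 with arithmetic means, 15 with the same median, 3 with the floor, 59 without the 4 neurons, 46 without Gad1 neurons and 23 to 38 without any one Mbp-high neuron. Fewer neurons by construction widen the counts within groups, and for the rest the cause was not tested. With arithmetic means the median over all genes was -0.70, so differences on that scale are to be read against it. The chaperone median was -0.24 with Mbp over 3 and 0.68 within RFP-negative EtOH neurons.

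Among the named genes past the size rule, signs turned only within labelled groups. They did so within RFP-negative EtOH neurons for Tfrc (-0.80), B4gat1 (-0.77), Pebp1 (-4.16), Prkacb (3.39), Znhit3 (1.41), Rab14 (2.61), Cycs (0.95), Hsp90ab1 (0.95), Hsp90b1 (-0.052), Psmb6 (-0.68) and mt-Rnr1 (-0.91), within PBS neurons for Atp5f1 (-2.17), Snhg11 (-0.99), mt-Nd1 (-0.050), Psmb6 (-0.53) and Rnf4 (0.13), and within RFP-positive EtOH neurons for Pgam1 (0.51). Those groups hold 1, 4 and 4 Mbp-high neurons, and the cause was not tested. Under every other setting tried, 0 of the 24 highest and lowest genes changed sign. Those settings reuse most of the values that chose the 24 genes, so a kept sign is no separate support.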

Other observations

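Genes over the trough in all 9 Mbp-high neurons and in fewer than 2 in 3 of the Mbp-low neurons numbered 4 of 1023. They were chosen after their values were seen. Beside mt-Nd4, Atp6v0c and Dynll1 they included mt-Rnr1, the small ribosomal RNA of mitochondria, with a mean of 8.84 ± 2.07 in Mbp-high neurons and 6.47 ± 3.18 in Mbp-low neurons (SD, n = 9 and 19). The mt-Rnr1 difference was 2.38 pooled, 1.74 within RFP-positive EtOH neurons, -0.91 within RFP-negative EtOH neurons and 4.48 within PBS neurons. Psmd6, a lid subunit of the proteasome, was over the trough in 3 of 9 Mbp-high and 1 of 19 Mbp-low neurons, a difference of 1.84.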
